A study of Nicotiana tabacum with 6 samples.

Results

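The antioxidant enzymes described here are the gene models of tobacco whose deposited description holds superoxide dismutase, catalase followed by a comma, ascorbate peroxidase, glutathione peroxidase or peroxiredoxin, and neither secretory peroxidase nor glutathione S-transferase. The rule found the same 65 models in both expression tables, out of 69500 models in all. RNA was sequenced from young leaves of NC82 tobacco (Nicotiana tabacum) seedlings, in 3 libraries from plants overexpressing NtPhyA (OE), a phytochrome A gene by its name, and 3 libraries from wild-type plants of the same variety (WT). Plants of both groups had been kept at 4 °C for 24 h, so the groups differ in the transgene alone by the labels, and no unchilled leaf enters the comparison. The labels give neither the promoter nor the line or lines of the transgene, nor whether a library is 1 plant or a pool. P-values therefore measure only how the libraries of a group scatter, and that scatter may be technical. In leaf RNA, fewer cells of a type and less RNA per cell cannot be told apart.

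Chilling in the light slows carbon fixation more than light capture, and the surplus electrons reduce oxygen to superoxide. Superoxide dismutases (SOD) turn superoxide into hydrogen peroxide, which is then removed by enzymes that differ in place and in reductant. Catalase splits it in peroxisomes without a reductant, ascorbate peroxidase uses ascorbate, and peroxiredoxins and plant glutathione peroxidases use thiols, mostly supplied by thioredoxins. The question put to these data was which of these classes differed in transcript abundance between chilled OE and WT leaves.

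By class, the 65 models were 18 ascorbate peroxidases, 15 glutathione peroxidases, 10 manganese/iron SODs (Mn/Fe SOD), 6 copper/zinc SODs (Cu/Zn SOD), 6 peroxiredoxins and 6 catalases, with 4 further models that the words caught but whose descriptions set them apart. Of these 4, 2 joined the Cu/Zn SOD domain to a heavy metal-associated domain, the layout of the chaperone that loads copper into Cu/Zn SOD. The other two were described as class I aminotransferases that carry a catalase signature and hold no catalase core domain, so the data go against calling them catalases, and they are given apart. Averaged over all libraries, 42 of the 65 reached 1 or more in the units of the deposited normalized abundance, and these entered the test. A further 17 were above 0 somewhere, at 1.42 or less in every library, and 6 were listed at 0 throughout.

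The libraries summed to between 440137 and 475581 in OE and between 450972 and 568208 in WT, with WT replicate 3 the highest. Leaf markers were present: 9 of 14 models for the small subunit of Rubisco were above 0 in all 6 libraries, and so were 60 of 93 chlorophyll a/b-binding models, 12 of 27 carbonic anhydrases and 15 of 22 phosphoribulokinases. Each marker group was taken by words of the description alone, so it may also hold related enzymes that do not mark leaf cells. The markers set the libraries apart within each group. Rubisco small subunit models summed to 29354, 18662 and 11895 in OE replicates 1, 2 and 3, and to 22073, 12152 and 6560 in WT replicates 1, 2 and 3. Chlorophyll a/b-binding models summed to 9148, 5094 and 1969 in OE and to 7099, 3588 and 1678 in WT, in the same order of replicates. Phosphoribulokinases gave 409, 303 and 181 in OE and 449, 216 and 138 in WT. Carbonic anhydrases ran otherwise, at 102, 209.8 and 85.8 in OE and 300.05, 350 and 587 in WT, with every OE library below every WT library. Core histones, which mark dividing cells, summed to 2669 to 4068 in OE and 2239 to 2947 in WT. Terpene synthases, taken as a marker of glandular trichomes, summed to 373 to 1052 in OE and 320 to 614 in WT. Of their 160 models, 29 were above 0 in all 6 libraries, and the words do not show that these models are confined to trichomes.

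None of the 42 tested antioxidant models differed between OE and WT by limma at a Benjamini-Hochberg adjusted p below 0.05, against 1 model (0.00557%) of all 17962 tested. The smallest adjusted p among them was 0.999. At an unadjusted p below 0.05 there was 1 of 42, beside 2.82% of all tested models. Between the groups, 24 of the 42 had a negative and 18 a positive log2 difference (OE minus WT, on the log2(value + 1) scale), where 51.7% of all tested models were negative and 48.3% positive. With every library scaled to the same total the split was 19 negative and 23 positive, beside 7574 and 10388 of all tested models. Without OE replicate 3 it was 18 negative and 24 positive, beside 8519 and 9440 of all tested models. The median log2 difference of the 42 was -0.049, and that of all tested models was -0.014. On that log2(value + 1) scale, the 95% confidence interval lay within 1 log2 unit of 0 on both sides in 22 of the 42 (52.4%, beside 40.7% of all tested models). The scale understates changes of low models, so for these the interval does not bound the ratio of abundances. All intervals rest on the scatter of the libraries, which may be technical. For the other 20 models the interval reached beyond 1 log2 unit in at least 1 direction, so a change of that size was not excluded.

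**Figure D1:**
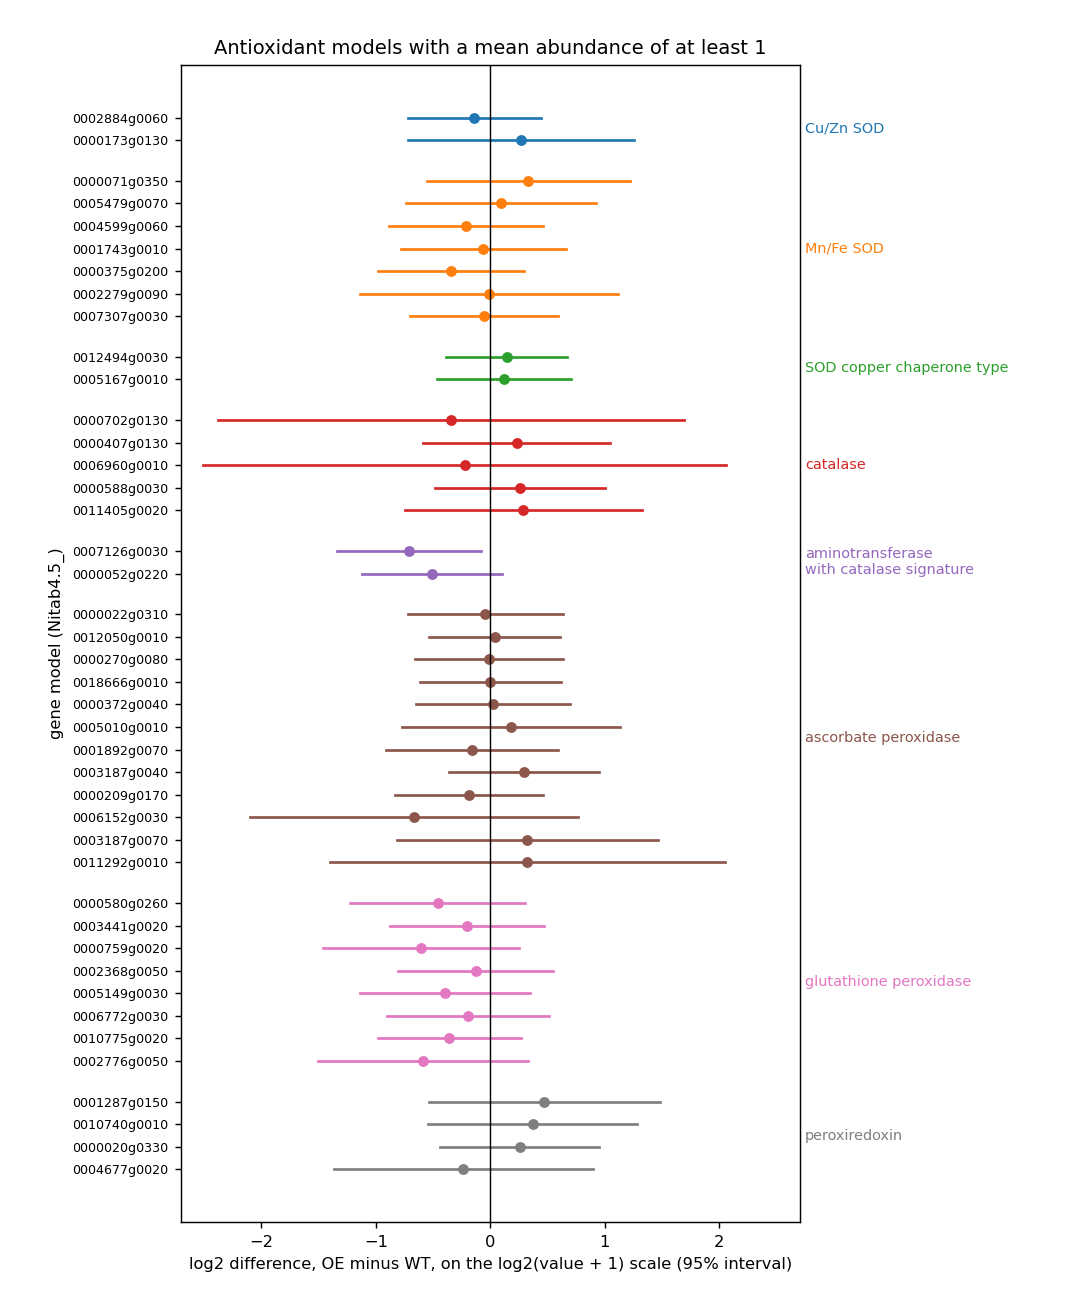
Log2 difference of OE minus WT for each of the 42 tested models, on the log2(value + 1) scale (horizontal axis), with points for limma estimates and lines for 95% confidence intervals, ordered by class and then by mean abundance. All 8 glutathione peroxidases lie left of 0 and all their intervals cross 0, the 2 widest intervals belong to catalases, and the interval of 1 aminotransferase with a catalase signature stays below 0.

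Glutathione peroxidases, which in plants reduce hydrogen peroxide and lipid peroxides, were the most abundant class, and their tested models had lower means in OE than in WT without any passing the test. The 15 models summed to 1317, 1293 and 1463 in OE and to 1706, 1416 and 2155 in WT. The groups overlapped, since WT replicate 2 lay below OE replicate 3. The group means were 1358 ± 92 in OE and 1759 ± 372 in WT (SD, n = 3 each), a log2 ratio of -0.37. Without WT replicate 3, the library with the highest total, that ratio was -0.20. The class rested on a pair of models that carried between 92.04% and 95.1% of its sum in every library.

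Nitab4.5_0000580g0260, the most abundant antioxidant model and number 40 of all models by mean, was at 633, 656 and 887 in OE and at 930.04, 814 and 1268 in WT. Replicate 3 was the highest library in both groups, and OE replicate 3 reached above WT replicate 2. The log2 difference of -0.46 ± 0.33 (SE) had a 95% interval from -1.22 to 0.30 and an adjusted p of 0.999 by limma. Nitab4.5_0003441g0020, number 65 by mean, was at 579.5, 550 and 504 in OE and at 656, 519 and 723 in WT, and its log2 difference was -0.21 ± 0.29 (SE). Again WT replicate 2 fell among the OE libraries. Nitab4.5_0000759g0020 was at 53.3, 36.7 and 32.9 in OE and at 67.9, 39.2 and 87.9 in WT, with the largest negative log2 difference of the class at -0.61 (95% interval from -1.46 to 0.25). The fourth by abundance, Nitab4.5_0002368g0050, was at 26.2, 30.3 and 21.1 in OE and at 25.7, 22.5 and 37.9 in WT, a log2 difference of -0.13 that became 0.084 without WT replicate 3. Nitab4.5_0002776g0050, a low model, was at 2.67, 1.92 and 1.39 in OE and at 2.34, 2.45 and 6.59 in WT. Its log2 difference of -0.59 became -0.20 without WT replicate 3.
All 8 tested glutathione peroxidases had a negative log2 difference, from -0.61 to -0.13, with 0 called and 0 at an unadjusted p below 0.05 by limma. All 8 stayed negative under the 3 other scalings, with medians from -0.39 to -0.29, and 7 of 8 were negative without WT replicate 3 or without OE replicate 3. With no filter on low values the class had 9 negative and 5 positive models and a median of -0.16. WT replicate 3 was the highest WT library in each of the 5 members named above, and all 8 models were read from the same 6 libraries. Of the 7 models below the abundance minimum, 6 were above 0 somewhere, at 0.73 or less, with a higher OE mean in 5 and a lower one in 1, and 1 was listed at 0 in all 6 libraries.

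**Figure D2:**
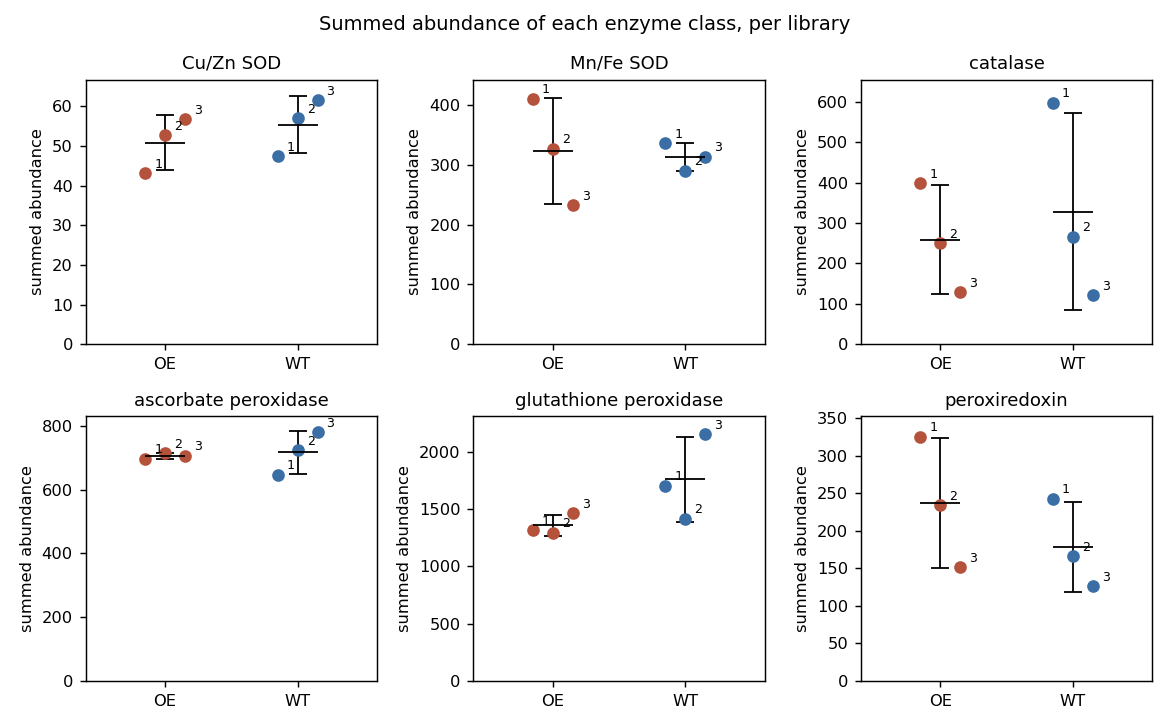
Summed abundance of each enzyme class (vertical axes, deposited normalized units, from 0) in OE and WT; each point is 1 library with its replicate number, the horizontal bar is the group mean and the whiskers are 1 SD (n = 3). Ascorbate peroxidase sums lie within 647 to 780 in all 6 libraries, while catalase sums run from 129 to 399 in OE and from 121 to 598 in WT.

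Ascorbate peroxidases, which spend ascorbate to reduce hydrogen peroxide in chloroplasts, cytosol and peroxisomes, had nearly equal sums in the 3 OE libraries, and OE and WT means that differed by less than the spread of the WT libraries. The 18 models summed to 696, 714 and 706 in OE and to 647, 723 and 780 in WT. The highest library held 1.03 times the lowest in OE and 1.20 times in WT. The 3 OE libraries lay inside the WT range, with means of 706 ± 9 in OE and 717 ± 67 in WT (SD, n = 3 each) and a log2 ratio of -0.022, or 0.086 with every library scaled to the same total. The description used, plant ascorbate peroxidase, is a sequence signature, and it does not say where in the cell an enzyme works.

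Nitab4.5_0000022g0310 carried between 39.3% and 50.9% of the ascorbate peroxidase sum. It was at 280, 298 and 328 in OE and at 254.5, 299 and 397 in WT, and its log2 difference of -0.046 ± 0.29 (SE) had a 95% interval from -0.72 to 0.63 and a limma adjusted p of 0.999. Both groups had replicate 3 highest. Nitab4.5_0000270g0080 had the same shape, at 85.4, 96.5 and 122 in OE and at 82.5, 107 and 117 in WT. A pair of models ran the other way within the groups, lowest in replicate 3 of each. They were Nitab4.5_0012050g0010, at 119, 120.1 and 98.8 in OE and 115, 114 and 99.9 in WT, and Nitab4.5_0018666g0010, at 98.5, 98.6 and 71.7 in OE and 99.4, 88.9 and 78.7 in WT. The log2 differences of these 2 models were 0.037 and 0.00066, with 95% intervals from -0.54 to 0.61 and from -0.61 to 0.61. In OE the sum thus varied less than any of these 4 models, while in WT it varied more than Nitab4.5_0012050g0010, whose highest WT library held 1.15 times its lowest.
The largest log2 differences in the class belonged to low models. Nitab4.5_0006152g0030 was at 2.26, 0.29 and 1.88 in OE and at 5.98, 3.39 and 0.58 in WT, a log2 difference of -0.67 with an interval from -2.10 to 0.77. Nitab4.5_0003187g0070 was at 4.17, 2.27 and 0.71 in OE and at 2.84, 1.18 and 0.77 in WT, a log2 difference of 0.32 with an interval from -0.82 to 1.46. Of the 12 tested models 5 were negative and 7 positive, with 0 called and 0 at an unadjusted p below 0.05 by limma, and 8 of the 12 had a 95% interval within 1 log2 unit of 0. Of the 6 untested models, 3 were at 1.42 or less and 3 were listed at 0 in all libraries.

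Catalase, the peroxisomal enzyme that disposes of the hydrogen peroxide of photorespiration, varied more between replicates than between OE and WT. The 6 catalase models summed to 399, 250.3 and 129 in OE and to 598, 266 and 121 in WT, highest in replicate 1 and lowest in replicate 3 of both groups. The highest library held 3.10 times the lowest in OE and 4.93 times in WT, while the group means of 259 ± 135 in OE and 329 ± 244 in WT (SD, n = 3 each) gave a log2 ratio of -0.34. With the 2 aminotransferases counted in, as the word rule has it, the ratio was -0.36, and on that count it was 0.34 without WT replicate 1, -0.79 without OE replicate 1, -0.73 without WT replicate 3 and -0.050 without OE replicate 3.

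A pair of catalase models had the widest spread. Nitab4.5_0000702g0130 was at 139, 74.0 and 33.6 in OE and at 277, 94.7 and 26.8 in WT. Nitab4.5_0006960g0010 was at 101, 55.8 and 22.9 in OE and at 226, 61.9 and 14.5 in WT. They kept close to each other in every library, with the first at 1.23 to 1.85 times the second, and WT replicates 1 and 3 enclosed all 3 OE libraries in both. Among WT libraries their highest value was 10.4 and 15.7 times their lowest, and 2.53% and 1.43% of the 16936 tested models above 0 in every library had a larger ratio. The corresponding ratios among OE libraries were 4.15 and 4.41, exceeded by 13.5% and 12.3% of those models. Their log2 differences were -0.34 ± 0.87 and -0.22 ± 0.97 (SE; limma adjusted p = 0.999 for each), with 95% intervals from -2.38 to 1.69 and from -2.51 to 2.06. Both differences were positive without WT replicate 1, at 0.47 and 0.73, and without OE replicate 3, at 0.18 and 0.33.
The third abundant catalase followed the same order as that pair in OE and departed from it in WT. Nitab4.5_0000407g0130 was at 143, 109 and 65.3 in OE and at 85.8, 101 and 72.4 in WT, with a log2 difference of 0.23 ± 0.35 (SE). In WT it was lowest in replicate 3 like the pair, but highest in replicate 2, while the pair was highest in replicate 1. The ratio of Nitab4.5_0000702g0130 to Nitab4.5_0000407g0130 was 0.97, 0.68 and 0.51 in OE replicates 1, 2 and 3, and 3.23, 0.93 and 0.37 in WT replicates 1, 2 and 3. The 2 other tested models, at means of 8.15 and 1.12, had log2 differences of 0.26 and 0.29. Of the 5 tested catalases 0 were called and 0 had an unadjusted p below 0.05 by limma. The catalase below the minimum, Nitab4.5_0009821g0010, was at 1.07, 1.02 and 0 in OE and listed at 0 in all 3 WT libraries; it is named after its values were seen.

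**Figure D3:**
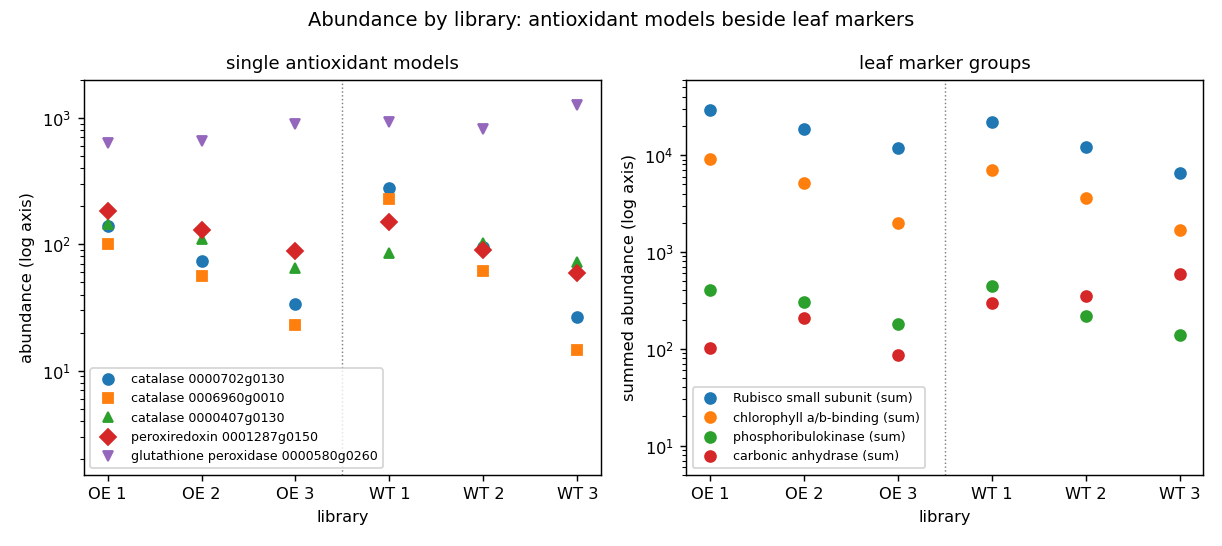
Abundance per library on log axes, OE left of the dotted line and WT right of it: 5 single antioxidant models (left panel) and the sums of 4 leaf marker groups (right panel). The catalase models Nitab4.5_0000702g0130 and Nitab4.5_0006960g0010 and the peroxiredoxin are highest in replicate 1 and lowest in replicate 3 of both groups, as are 3 of the 4 marker groups. Carbonic anhydrase is highest in replicate 2 in OE and in replicate 3 in WT, and the glutathione peroxidase is highest in replicate 3 of both.

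Catalase sums were highest in replicate 1 and lowest in replicate 3 of each group, and so were 3 of the 4 leaf marker sums given above, carbonic anhydrase being the exception. The part of the marker differences in the catalase values was not tested. This order, highest in replicate 1 and lowest in replicate 3 of both groups, was found in 8 of the 42 antioxidant models (19.0%) and in 15.2% of all tested models.

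Peroxiredoxins use a reactive cysteine to reduce peroxides. The rule caught models described with a peroxiredoxin C-terminal domain and as alkyl hydroperoxide reductase subunit C (AhpC) or thiol specific antioxidant. Only Nitab4.5_0000781g0010 and Nitab4.5_0000204g0010, both below the abundance minimum, were also described as AhpC-type. The descriptions of the tested models name no such type. A peroxiredoxin described in other words would fall outside the rule. The 6 models summed to 325, 234 and 151 in OE and to 243, 166 and 126 in WT, with overlapping groups. Means were 237 ± 87 in OE and 178 ± 59 in WT (SD, n = 3 each), a log2 ratio of 0.41. It was 0.11 without OE replicate 1 and 0.70 without WT replicate 1.

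Nitab4.5_0001287g0150, which carried between 46.9% and 61.4% of the class, was at 185, 130 and 88.1 in OE and at 149, 89.3 and 59.0 in WT, a log2 difference of 0.47 ± 0.43 (SE; limma adjusted p = 0.999). Replicate 1 was the highest and replicate 3 the lowest in both groups. Nitab4.5_0010740g0010 was at 75.9, 58.3 and 30.2 in OE and at 48.7, 41.5 and 30.2 in WT, with a log2 difference of 0.37 (95% interval from -0.54 to 1.28). Nitab4.5_0000020g0330 was at 60.2, 43.8 and 31.8 in OE and at 41.2, 33.9 and 34.8 in WT, a log2 difference of 0.26. In each of these 3 models OE replicate 1 was the highest of the 6 libraries, and OE replicate 3 lay below WT replicate 1. The low model Nitab4.5_0004677g0020, at 3.84, 1.91 and 0.50 in OE and 3.84, 1.56 and 1.79 in WT, had a log2 difference of -0.24. All 4 were highest in replicate 1 of both groups, as 24.1% of all tested models were, and 0 of the 4 were called or had an unadjusted p below 0.05 by limma. The chlorophyll a/b-binding sums were likewise highest in replicate 1 of both groups, and their part in the peroxiredoxin values was not tested.
Nitab4.5_0000781g0010, a peroxiredoxin below the abundance minimum, was at 0.43, 0.37 and 0.48 in OE and at 0.07, 0.08 and 0 in WT. It was the only one of the 65 models whose OE libraries all lay above its WT libraries. Among the 42 tested models 0 had groups apart in that direction, beside 4.01% of all tested models. No such share was computed for models below the minimum. With no filter on low values limma gave it an unadjusted p of 0.0103 and an adjusted p of 0.904.

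Superoxide dismutases, the first step of the chain, summed to 482, 411 and 320.0 in OE and to 411, 371 and 406.9 in WT over their 18 models, copper chaperone types included, a log2 ratio of 0.029. Mn/Fe enzymes, which in plants sit in mitochondria (manganese) and chloroplasts (iron), made up most of it. They summed to 409.95, 327 and 232 in OE and to 336, 290 and 314 in WT, with means of 323 ± 89 in OE and 313 ± 23 in WT (SD, n = 3 each). The description does not say which metal a model binds.

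The 4 abundant Mn/Fe models fell into pairs by the shape of their WT values. Nitab4.5_0000071g0350 was at 141, 101 and 66.0 in OE and at 91.5, 95.1 and 53.8 in WT, and Nitab4.5_0005479g0070 at 102, 74.0 and 50.7 in OE and at 93.7, 63.4 and 53.2 in WT. In both, replicate 3 was the lowest library of its group. Nitab4.5_0004599g0060 was at 65.2, 66.3 and 57.7 in OE and at 63.6, 59.8 and 101.9 in WT, and Nitab4.5_0001743g0010 at 72.6, 66.5 and 41.5 in OE and at 59.3, 51.2 and 75.01 in WT. In these 2 models WT replicate 3 was the highest WT library. The first pair carried 34.1% of the Mn/Fe sum in WT replicate 3, and between 50.3% and 59.3% in the other 5 libraries. The log2 differences of the 4 models were 0.33, 0.091, -0.21 and -0.060, and limma gave each an adjusted p of 0.999.
Nitab4.5_0000375g0200 had the largest negative log2 difference among the SODs, at -0.35 (95% interval from -0.99 to 0.29). It was at 20.5, 15.8 and 12.2 in OE and at 21.1, 17.5 and 23.0 in WT, with WT replicate 3 the highest of all libraries and OE replicate 3 the lowest.

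Cu/Zn SOD, the form of the cytosol and the chloroplast, was nearly all 1 model. Nitab4.5_0002884g0060 carried between 93.0% and 98.2% of the Cu/Zn sum and was at 42.4, 49.0 and 54.8 in OE and at 45.5, 55.9 and 60.3 in WT. Replicate 1 was the lowest and replicate 3 the highest in both groups, the reverse of the abundant Mn/Fe model Nitab4.5_0000071g0350 in OE, and the log2 difference was -0.14 (95% interval from -0.72 to 0.44). Summed Mn/Fe SOD was 9.50, 6.21 and 4.09 times summed Cu/Zn SOD in OE and 7.08, 5.09 and 5.09 times in WT. The 2 copper chaperone types were at 14.96 to 16.7 (Nitab4.5_0012494g0030) and 14.2 to 16.2 (Nitab4.5_0005167g0010) in OE, and at 12.4 to 15.5 and 11.9 to 17.5 in WT. Their log2 differences were 0.14 and 0.12, with 95% intervals from -0.39 to 0.67 and from -0.47 to 0.70. The Cu/Zn and chaperone models are named after their values were seen. Of the 11 tested SOD models 0 were called and 0 had an unadjusted p below 0.05 by limma, and 8 had an interval within 1 log2 unit of 0.

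Among the 42 tested models the groups failed to overlap in 2, both of them the aminotransferases with a catalase signature and both lower in OE. That is 4.76% of the tested members, beside 7.87% of all tested models, of which 3.86% were lower in OE. Nitab4.5_0007126g0030 was at 6.39, 10.1 and 8.38 in OE and at 12.2, 13.2 and 16.9 in WT, a log2 difference of -0.71 ± 0.27 (SE; limma adjusted p = 0.999). It was the 1 tested member with an unadjusted p below 0.05. Nitab4.5_0000052g0220 was at 2.54, 1.83 and 3.10 in OE and at 4.03, 3.50 and 4.23 in WT, a log2 difference of -0.51 ± 0.26 (SE). Aminotransferases move amino groups between amino acids and keto acids, and neither model counts toward the removal of hydrogen peroxide by its description.

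The make-up of the antioxidant transcripts followed from these values. All 65 models together made up between 0.632% and 0.679% of the summed abundance in OE and between 0.635% and 0.787% in WT. Of that sum, glutathione peroxidases held 40.8%, 44.4% and 52.6% in OE and 47.1%, 47.8% and 59.7% in WT, and ascorbate peroxidases 21.6%, 24.5% and 25.4% in OE and 17.9%, 24.4% and 21.6% in WT. Catalases held 12.3%, 8.59% and 4.63% in OE and 16.5%, 8.998% and 3.36% in WT. Peroxiredoxins held 10.1%, 8.03% and 5.43% in OE and 6.70%, 5.62% and 3.48% in WT. The order of catalase and glutathione peroxidase was the same in every library, but glutathione peroxidase stood at 3.30, 5.17 and 11.4 times catalase in OE and at 2.85, 5.32 and 17.8 times in WT. The OE values of that ratio lay inside the WT range. Glutathione peroxidase stood at 1.89, 1.81 and 2.07 times ascorbate peroxidase in OE and at 2.64, 1.96 and 2.76 times in WT, so that OE replicates 1 and 2 lay below every WT library while OE replicate 3 lay above WT replicate 2. Peroxiredoxin stood at 0.467, 0.328 and 0.214 times ascorbate peroxidase in OE and at 0.375, 0.230 and 0.161 times in WT, with OE replicate 1 above every WT library and the other two inside the WT range. Catalase stood at 0.572, 0.350 and 0.182 times ascorbate peroxidase in OE and at 0.924, 0.368 and 0.156 times in WT, with OE inside the WT range. Such ratios within a library do not depend on how libraries are scaled against each other.

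**Figure D4:**
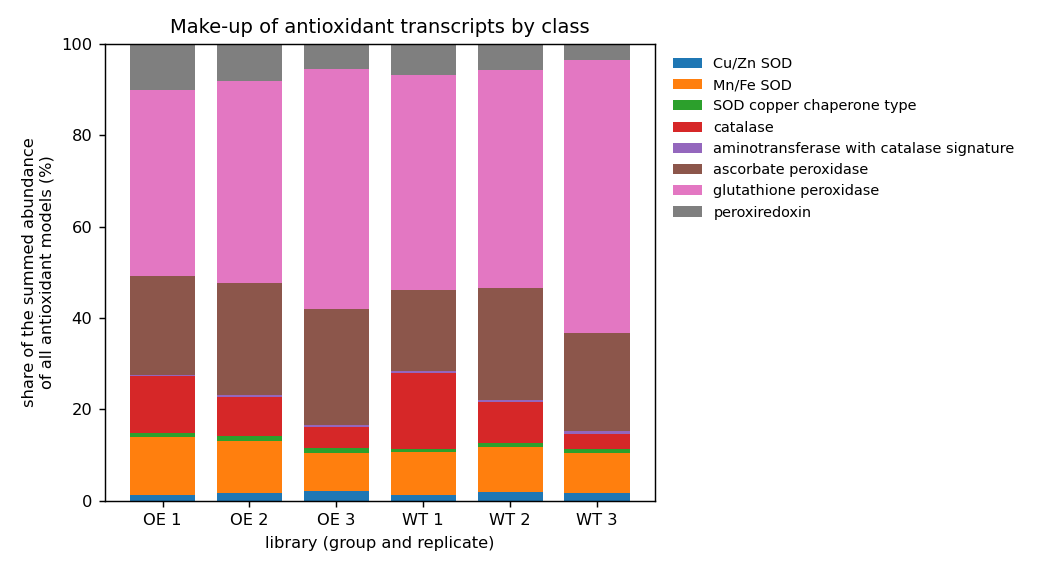
Share of the summed abundance of all 65 antioxidant models held by each class (stacked bars from 0 to 100%), for the 3 OE libraries and then the 3 WT libraries. Glutathione peroxidases take the largest share in each library, and the catalase share is smallest in replicate 3 of both groups, at 4.63% in OE and 3.36% in WT.

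Enzymes that supply or repair these systems were read from the same fit. A list of 345 models was taken by words of the description alone. It took in glutathione reductases, glutaredoxins, thioredoxins and their reductases, ferritins, alternative and ascorbate oxidases and NADPH oxidases. It also held models described as glutathione synthases, sulfiredoxin, copper chaperones and methionine sulfoxide reductases. Of its 18 NADPH oxidase models 0 reached the abundance minimum. In all, 180 models of the list were tested. By limma 0 of them were called in either direction and 4 had an unadjusted p below 0.05 (2.22%, beside 2.82% of all tested models). The median log2 difference of the 180 was -0.055, beside -0.014 over all tested models. Of them 112 were negative (62.2%, beside 51.7% of all tested models) and 68 positive. How far this split depends on the scaling of the libraries was not tested. The word ferritin also matched proteins of the ferritin-like superfamily that are not ferritins. No description matched the reductases of monodehydroascorbate or dehydroascorbate, and none matched glutamate-cysteine ligase. Most tested partners were matched by the word thioredoxin (88, median log2 difference -0.077) or glutaredoxin (44, median -0.036). The 7 thioredoxin reductases had a median of -0.034. The word thioredoxin also matched proteins that are not thioredoxins, such as the splicing factor given below, so the 88 are not all thioredoxins.

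Of the 5 with the smallest unadjusted p, the first was a glutaredoxin, Nitab4.5_0000295g0020, an enzyme that reduces disulfides with glutathione. It was at 4.22, 2.84 and 4.05 in OE and at 0, 1.70 and 0.85 in WT, a log2 difference of 1.45 ± 0.40 (SE; limma adjusted p = 0.999). An alternative oxidase, Nitab4.5_0000030g0350, which lets mitochondria pass electrons to oxygen without pumping protons, was at 108, 93.6 and 116 in OE and at 88.6, 57.6 and 51.8 in WT, a log2 difference of 0.70. In both models all 3 OE libraries lay above all 3 WT libraries. Of the 3 others, all thioredoxin by name and all with OE libraries below WT libraries, Nitab4.5_0012292g0010 is described as a thioredoxin-like splicing factor of the U5 particle. It was at 32.8, 34.0 and 36.4 in OE and at 55.6, 54.4 and 77.4 in WT, a log2 difference of -0.83. The thioredoxins Nitab4.5_0002221g0040 and Nitab4.5_0002345g0090 had log2 differences of -0.70 and -0.62. All 5 had a limma adjusted p of 0.999. Groups that did not overlap were found in 9 of the 180 (5.0%, beside 7.87% of all tested models).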

How the data were processed

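The deposited values are 2 tables, 1 per plant material, of a normalized abundance signal per gene model and library. HISAT2, RSEM and StringTie are named, per the submitters' processing notes. Their versions and settings, and the genome build, were not given in the sources used here, nor whether the unit is TPM or FPKM or whether the authors normalized the tables together. Every level set across the tables assumes comparable libraries. In models seen in 1 library, values in OE replicate 1 spread from 0.02 to 1.38 (5th to 95th percentile). Such models can hold more than 1 read, so the spread cannot tell whether all models share a single step per read. Read depth is unknown, so no counting interval is given. The authors' group means were not used. No model has a gene symbol or a match in the RefSeq gene table, so models are named by description; no sequence is printed. Tobacco carries 2 parental genomes with near-identical copies, and how reads were divided between copies is uncertain.

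Values were transformed to log2(value + 1), which understates changes of low models. For the 17962 models averaging 1 or more, limma 3.58.1 under R 4.3.3 was used (group alone, trended and robust empirical Bayes), with p-values adjusted by Benjamini-Hochberg. The fit was tested on simulated data. Class sums take every member and have no test. Members and lists were chosen with earlier results of these data known. Named members were the 4 most abundant and the 2 with the largest difference in each class, those called and those whose groups do not overlap; redox partners were the 5 with the smallest p. Alternatives were a pseudocount of 0.1, other filters, 3 scalings, a replicate block and leaving out each library.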

Additional observations from a re-analysis of the deposited data

How the results depend on the processing

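None of the antioxidant members and none of the redox partners was called by limma under any alternative run (members: smallest adjusted p from 0.724 with the replicate block to 1, with 0 to 2 at an unadjusted p below 0.05). The 1 call over all models was 0 with a pseudocount of 0.1, with no filter, with the 3 scalings, with the replicate block, and without any 1 library (0 in each), and stayed 1 where 3 libraries had to reach 1. The replicate numbers were not taken as pairs: deviations of same-numbered libraries correlated at 0.56, -0.114 and 0.42 over all tested models, and OE replicate 2 correlated best with WT replicate 1, so not every library correlated best with its own number. The block moved that count of calls to 0 and changed no call among members. It raised the models at an unadjusted limma p below 0.05 from 507 to 1183 of all 17962, and left the members at 1 of 42. Mean log2 ratios of class sums by number, added after seeing the data, were 0.010 (superoxide dismutase), -0.24 (catalase with the aminotransferases), -0.018 (ascorbate peroxidase), -0.35 (glutathione peroxidase) and 0.39 (peroxiredoxin). Scaled to the same total, the ascorbate peroxidase ratio was 0.086, and the median log2 difference of all tested models moved from -0.014 to 0.068. The divisor in that scaling was 1.20 for WT replicate 3 and 0.93 to 1.00 for the other libraries. Left-out libraries gave ranges from -0.12 to 0.17 for superoxide dismutase, -0.79 to 0.34 for catalase, -0.091 to 0.043 for ascorbate peroxidase, -0.51 to -0.20 for glutathione peroxidase and 0.11 to 0.70 for peroxiredoxin.

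Signs of single log2 differences, none of them called, turned under scaling. The same total per library divided WT replicate 3 by the largest factor, as given above. The cause under the other scalings was not tested. The models given here are only those among the 25 members named by the rule. Over all 42 tested members, the same total per library moved the negative signs from 24 to 19. Over all 17962 tested models it moved them from 9278 to 7574. With the same total per library, Nitab4.5_0000022g0310 became 0.061, Nitab4.5_0000270g0080 0.093 and Nitab4.5_0001743g0010 0.044. With quantile normalization the same models were at 0.147, 0.143 and 0.066, and median ratio scaling put Nitab4.5_0018666g0010 at -0.019. Leaving out 1 library turned the sign of 21 of the 42 tested members, the cause not tested. Among them were 13 of the 25 members named by the rule, whose ranges over the left-out libraries follow. Catalases ran from -1.19 to 0.47 (Nitab4.5_0000702g0130), -1.21 to 0.73 (Nitab4.5_0006960g0010) and -0.020 to 0.54 (Nitab4.5_0000407g0130). Ascorbate peroxidases ran from -0.19 to 0.13 (Nitab4.5_0000022g0310), -0.16 to 0.10 (Nitab4.5_0000270g0080), -0.055 to 0.74 (Nitab4.5_0003187g0070), -0.027 to 0.13 (Nitab4.5_0012050g0010) and -0.084 to 0.15 (Nitab4.5_0018666g0010). Mn/Fe SODs ran from -0.21 to 0.18 (Nitab4.5_0001743g0010), -0.35 to 0.028 (Nitab4.5_0004599g0060) and -0.15 to 0.35 (Nitab4.5_0005479g0070), the glutathione peroxidase Nitab4.5_0002368g0050 from -0.28 to 0.084, and the peroxiredoxin Nitab4.5_0004677g0020 from -0.64 to 0.20.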
